A study of Mus musculus with 12 samples.

Results

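Ribosome biogenesis genes were followed across 3 treatments of BV2 cells, an immortalised mouse microglial line. They were the genes whose deposited pathway annotation holds the KEGG term for ribosome biogenesis in eukaryotes and neither the term for RNA transport nor that for the spliceosome. Of 22935 genes in the tables, 74 carried the term, and 57 were members after the 17 genes that share the other terms were left out. Among the 17 were the subunits of ribonuclease P and MRP, the export factors Xpo1, Ran and Nmd3, and Snu13. The rule itself uses no expression value, but it was set with earlier results of these data known. The members' only pathway term was this one in 50 cases.

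Every library analysed here came from cells given 10 µM oxyhaemoglobin (oxy-Hb), the haemoglobin set free when blood enters the subarachnoid space. Of these libraries 3 had oxy-Hb alone. Another 3 had oxy-Hb with C3a, the complement C3 fragment that binds the receptor C3aR, at 20 ug/ul on the label, a unit that is uncertain. The remaining 3 had oxy-Hb with 50 µM C3aRA, which is nowhere written out in full in the labels. The series also has 3 PBS samples that were not analysed here, so all groups carry the oxy-Hb exposure and its own effect on the members was not measured. Whether replicates came from separate cultures is not in the labels, and p-values therefore rest on a spread between samples that may be technical. All libraries come from 1 cell line that carries growth-promoting oncogenes, and the labels give no genotype, time or age. In bulk RNA, fewer cells of a type and less RNA per cell cannot be told apart.

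Ribosomes are built in the nucleolus from a long precursor RNA that RNA polymerase I transcribes. Small nucleolar ribonucleoproteins (snoRNPs) modify that precursor: box C/D particles methylate it and box H/ACA particles turn uridines into pseudouridines. A large assembly called the small-subunit processome, made of the UtpA, UtpB, MPP10 and U3 modules and many single factors, folds and cuts the part that becomes the 40S subunit. Separate GTPases and AAA-ATPases drive maturation of the 60S precursor, and ribonucleases trim the RNA ends. In macrophages and microglia, as in other cells, the pathway follows growth and protein output.

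Library totals ran from 12934794 to 20479002 counts, and a level of 3 counts equalled 0.146 to 0.232 CPM (counts scaled to library size), a floor for counting error alone. Microglia and macrophage markers summed to 2003 to 2366 CPM. Cd68, Ptprc and Adgre1 led them, whereas C1qa was at 0 in 7 of 9 libraries and Tmem119 and P2ry12 stayed at or below 2.41 and 3.90 CPM. The 1 astrocyte and 1 neuronal marker in the tables reached at most 0.698 and 0.818 CPM, the 2 red cell markers 1.62, the 2 endothelial or fibroblast markers 2.06 and the 3 oligodendrocyte markers 35.3 CPM in sum. C3a replicate 2 stood apart: 77 genes of cytosolic ribosomal proteins took 47958 CPM of it and 30739 to 35299 CPM of the others, and it differed from C3a replicates 1 and 3 by a chi-square of 67.5 and 60.9 per gene, against 5.34 to 10.4 for the other replicate pairs.

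Of the 57 members, 56 passed the filter on low counts. Fbll1, a fibrillarin relative, did not: it had 4 counts in oxy-Hb replicate 3 and none in any other library. Summed over all members the level was 7541 to 8880 CPM, lowest in C3aRA replicate 1 and highest in C3a replicate 3. The median tested member stood at 106 CPM, against 22.6 CPM for all 14146 genes tested. Per kilobase of coding sequence of the principal transcript, the highest levels averaged over 9 libraries were those of Nhp2 (955 CPM per kb) and Nop10 (544), both subunits of the H/ACA snoRNP. Nop58, a core protein of the C/D snoRNP, at 271 CPM per kb, and Fcf1, the nuclease Utp24, at 267, came next, and their order is uncertain because Nop58 also has a longer coding transcript than the principal one. The lowest levels per kilobase among the tested members were 7.04 for Nol6, a processome factor, 9.31 for Mdn1, the giant AAA-ATPase of the 60S precursor, and 9.35 for Rexo1, an RNA exonuclease. Members had a median coding length of 1766 bases, against 1368 over all genes tested, and a median GC content of 48.1% against 49.6%. Of the tested members 5, or 8.93% against 2.05% of all genes tested, host small nucleolar RNA genes on their own strand: Nop56 holds 5, Nop58 4, Gnl3 and Wdr43 3 each and Dkc1 1.

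With C3a, most ribosome biogenesis genes lay slightly above their oxy-Hb level, but none of them passed the test as higher. This comparison addressed the response of the members to the ligand of C3aR. Of 56 tested members 45 had a log2 fold change above 0, against 50.2% of all genes, and the median was 0.17 (all genes 0.0016) within a range of -0.62 to 0.49. Calls at a Benjamini-Hochberg adjusted p below 0.05 in edgeR's quasi-likelihood test were 0 higher and 1 lower, against 0.905% and 3.04% of all genes (3.94% in all). An unadjusted p below 0.05 was reached by 14 members on the higher side and 5 on the lower, out of 56, against 24.1% of all genes in either direction. All 3 C3a libraries lay above all 3 oxy-Hb libraries for 16 members (28.6%, against 13.2% of all genes), and below them for 5 (8.93%, against 14.6%), where 27.8% of all genes had groups apart in either direction.

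**Figure D1:**
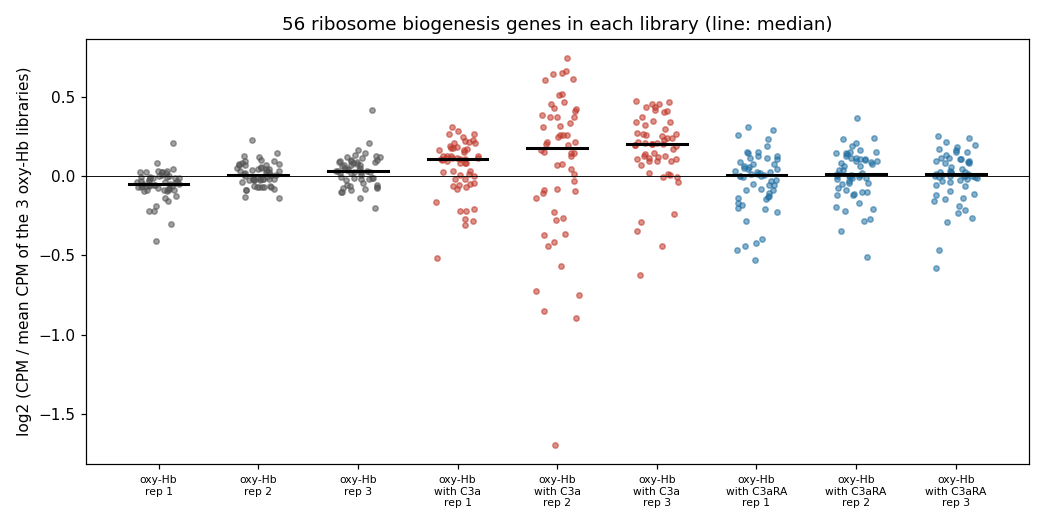
Each point is 1 of the 56 tested ribosome biogenesis genes in 1 library, as the log2 ratio of its CPM to its mean over the 3 oxy-Hb libraries, and black lines are medians. The lines of the 3 C3a libraries lie above those of the other 6, and C3a replicate 2 has the widest scatter.

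By library, with a prior count of 2, the median member lay at -0.047, 0.0090 and 0.034 on the log2 scale in oxy-Hb replicates 1 to 3, measured against the oxy-Hb mean. It lay at 0.11, 0.18 and 0.20 in the C3a replicates and at 0.0091, 0.017 and 0.017 in the C3aRA replicates. The 3 C3a medians were thus above the other 6. Members above their oxy-Hb mean numbered 40, 37 and 48 in the C3a libraries, 32, 32 and 35 in the C3aRA libraries and 11, 30 and 36 in the oxy-Hb libraries themselves.

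The called member was Rexo1 (ENSMUSG00000047417, chr10:80540922-80561560 (- strand) in GRCm38), named after a yeast exonuclease that trims the 3' ends of ribosomal and other RNAs. It stood at 39.0, 40.1 and 35.6 CPM with oxy-Hb, 26.7, 23.2 and 24.8 CPM with C3a and 37.4, 37.1 and 42.5 CPM with C3aRA. Every C3a library was below every library of the other groups, and the other groups overlapped. Rexo1 fell by 0.62 ± 0.12 (SE, n = 3 per group) on the log2 scale with C3a against oxy-Hb (edgeR adjusted p = 0.0137). Fits without oxy-Hb replicate 1 or 2 did not call it, nor did a fit of the 2 groups alone (adjusted p = 0.0565), and correcting each library for transcript length and GC left a log2 fold change of -0.21 (adjusted p = 0.183).

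The other ribonucleases went both ways. Xrn2, a 5'-3' exonuclease of the nucleus that trims precursor RNA, was at 415, 405 and 449 CPM with oxy-Hb and 493, 396 and 507 CPM with C3a, where C3a replicate 2 alone lay below the oxy-Hb libraries. Drosha, the nuclease better known for microRNA precursors, was at 81.1, 78.1 and 78.3 CPM with oxy-Hb and 75.3, 58.3 and 79.0 CPM with C3a (log2 fold change -0.16 ± 0.13, adjusted p = 0.468). The 6 ribonucleases had a median of -0.16, and 2 of them lay above 0.

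Among the proteins of the modification particles all 7 tested members lay on the higher side with C3a, and none passed. The 4 H/ACA proteins had log2 fold changes from 0.23 to 0.35 (median 0.29) and the 3 C/D proteins from 0.17 to 0.34 (median 0.20). Groups did not overlap for 0 of the 4 and for 1 of the 3. For C3a replicates 1 and 3 against oxy-Hb, Nop10, Nhp2, Gar1 and Dkc1 lay at 0.18, 0.10, 0.29 and 0.24. Nop58 was at 298, 331 and 368 CPM with oxy-Hb, 379, 431 and 455 CPM with C3a and 337, 338 and 308 CPM with C3aRA. All its C3a libraries lay above the other 6, and the log2 fold change of 0.34 ± 0.11 (SE, n = 3 per group) had an adjusted p of 0.0845 in edgeR. Fbl, the methyltransferase fibrillarin, was at 51.9, 59.7 and 70.0 CPM with oxy-Hb and 68.8, 75.1 and 64.8 CPM with C3a, ranges that overlap.

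In the UtpA, UtpB and MPP10 modules of the small-subunit processome all members lay on the higher side. Of the 6 UtpB proteins, WD-repeat scaffolds for the most part, 5 had C3a libraries wholly above the oxy-Hb libraries, with a median of 0.22. Wdr36, named here after its values were seen, was at 117, 123 and 123 CPM with oxy-Hb, 150.0, 144 and 164 CPM with C3a and 116, 130.5 and 119.6 CPM with C3aRA, and its log2 fold change of 0.34 ± 0.10 had the lowest adjusted p on the higher side (0.0665 in edgeR). For Pwp2 the levels were 26.1, 26.2 and 27.7 CPM with oxy-Hb and 31.6, 35.8 and 36.1 CPM with C3a, a log2 fold change of 0.37 ± 0.13 (adjusted p = 0.102). The 5 UtpA proteins, which bind the nascent precursor first, had log2 fold changes from 0.10 to 0.26. Within UtpA, Utp4 was at 212, 233 and 230.1 CPM with oxy-Hb and 261, 262 and 285 CPM with C3a, and Wdr43 at 296, 311 and 338 and 339, 351 and 364 CPM, so that neither gene's groups overlapped. Heatr1, the largest UtpA protein, was at 213, 219 and 222 CPM with oxy-Hb and 236, 168 and 301 CPM with C3a, with C3a replicate 2 lowest and C3a replicate 3 highest of all libraries. The MPP10 proteins Mphosph10, Imp3 and Imp4, which join the U3 particle to the precursor, lay between 0.20 and 0.28, all with overlapping groups. Imp3 was at 78.6, 82.7 and 75.5 CPM with oxy-Hb and 70.4, 123 and 78.8 CPM with C3a. The mean of its C3a replicates 1 and 3 minus that of oxy-Hb was -0.083 on the log2 scale.

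Late 40S factors also lay above oxy-Hb, all 4 without overlap. Nob1, the endonuclease that makes the mature 3' end of 18S RNA, was at 84.0, 82.0 and 84.7 CPM with oxy-Hb and 88.7, 116 and 91.1 CPM with C3a. The kinase-like ATPase Riok1 was at 62.9, 64.2 and 62.0 and 70.6, 72.6 and 71.8 CPM and its relative Riok2 at 71.6, 78.2 and 78.1 and 84.5, 88.1 and 82.1 CPM. Ak6, an adenylate kinase that acts on the 40S precursor, went from 32.1, 32.7 and 29.6 CPM to 36.4, 52.7 and 43.7 CPM, the largest log2 fold change among the members on the higher side (0.49 ± 0.15, adjusted p = 0.0729). Ak6 overlaps Taf9 on the same strand, and reads of both genes may have been counted together.

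Single processome factors were spread more widely. Bms1, a GTPase, was at 189, 198 and 216 CPM with oxy-Hb and 236, 183 and 266 CPM with C3a, again with C3a replicate 2 lowest. Nat10, which acetylates 18S RNA, was at 56.8, 54.2 and 60.6 CPM with oxy-Hb and 46.1, 44.4 and 55.7 CPM with C3a (log2 fold change -0.23 ± 0.12, adjusted p = 0.251). On the lower side Tcof1, the nucleolar protein treacle, had the largest change after Rexo1, at 113, 95.4 and 85.2 CPM with oxy-Hb and 84.8, 54.5 and 72.2 CPM with C3a (-0.48 ± 0.16, adjusted p = 0.096). Treacle's groups did not overlap, nor did those of Nol6, at 27.9, 26.1 and 25.0 and 22.6, 17.8 and 22.3 CPM. Csnk2a2, a catalytic subunit of casein kinase 2, was also lower without overlap (-0.26 ± 0.10, adjusted p = 0.134), while the other catalytic subunit, Csnk2a1, and the regulatory subunit Csnk2b lay at 0.09 and 0.16.

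Factors of the 60S precursor had a median of 0.13, with 10 of 12 above 0 and 4 without overlap. The GTPase Gtpbp4 was at 357, 357 and 406 CPM with oxy-Hb and 403, 482 and 436 CPM with C3a (log2 fold change 0.24 ± 0.10, adjusted p = 0.172). Sbds and Efl1, which together release the factor Eif6 from the 60S subunit, lay at 0.35 and 0.12, and Gnl3, nucleostemin, at 0.11. Sbds was at 60.2, 60.4 and 54.4 CPM with oxy-Hb and 63.8, 91.7 and 67.0 CPM with C3a. The mean of its C3a replicates 1 and 3 lay 0.17 above oxy-Hb on the log2 scale. Nvl, an AAA-ATPase, was at 149, 141 and 159.8 CPM with oxy-Hb and 159, 112 and 160.3 CPM with C3a. Mdn1 was at 181, 185 and 182 CPM with oxy-Hb and 157, 56.4 and 201 CPM with C3a, with C3a replicate 2 at less than any other library.

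**Figure D2:**
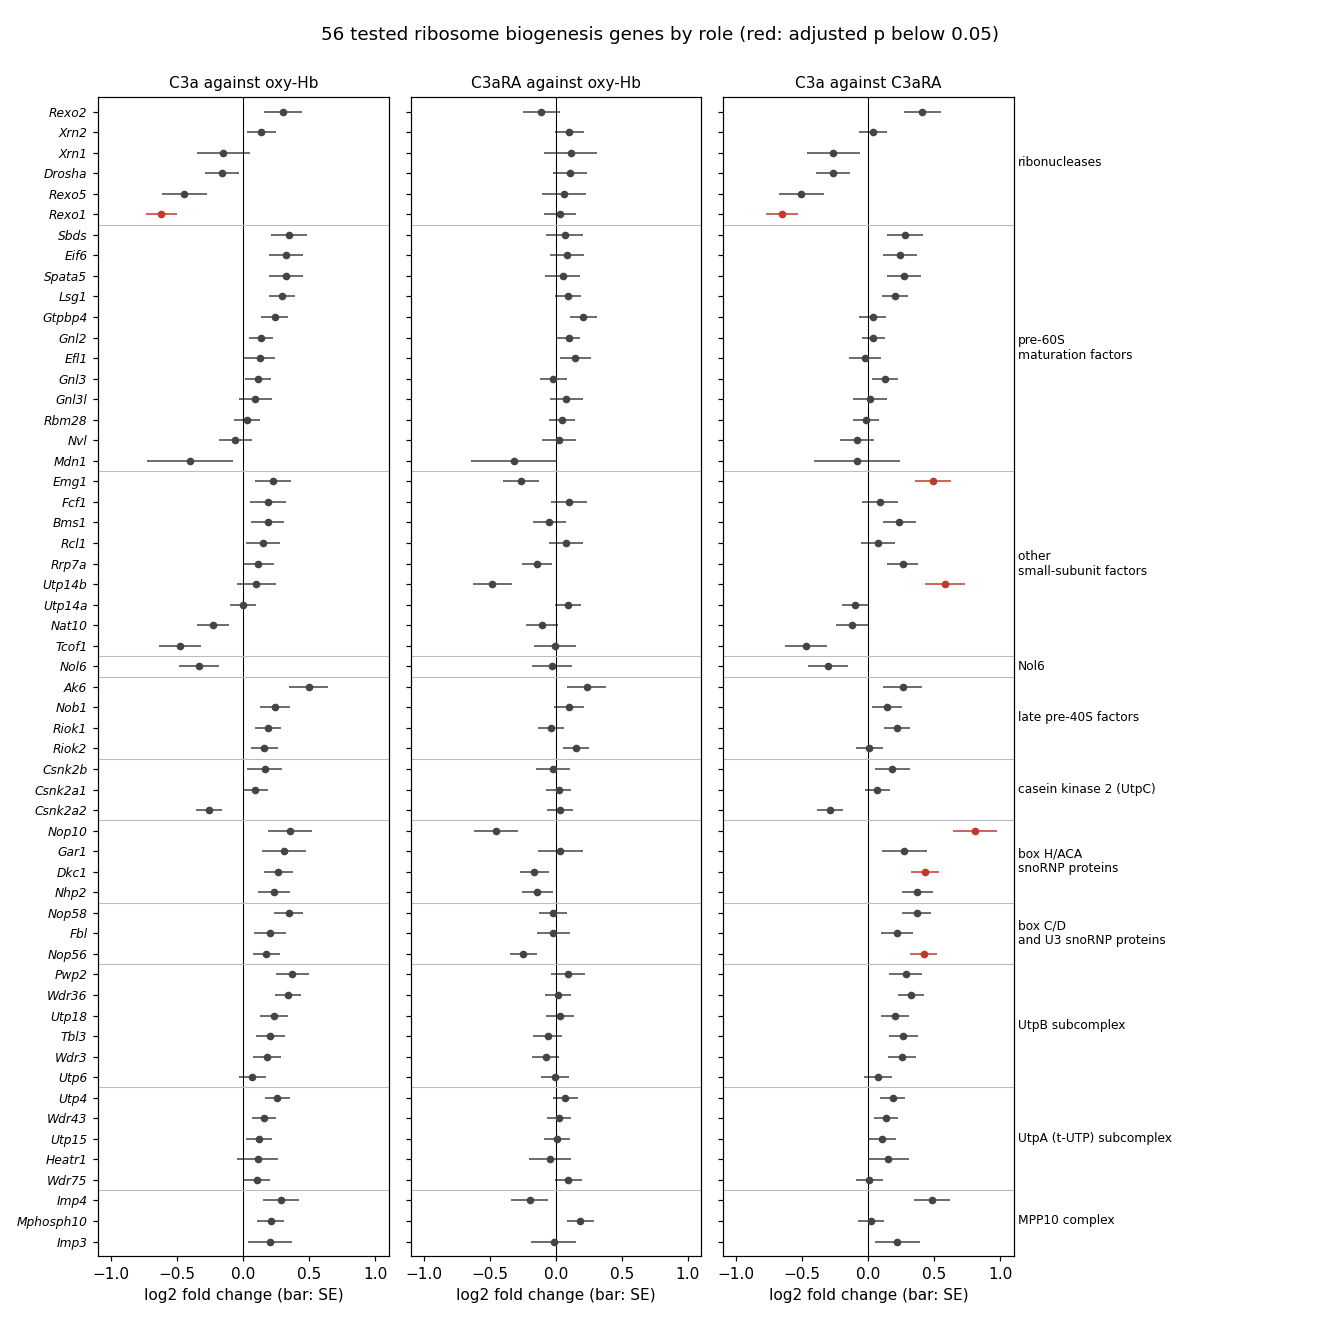
Points are log2 fold changes of the 56 tested ribosome biogenesis genes in 3 comparisons, with SE bars, ordered by role, and red marks an adjusted p below 0.05 in edgeR's quasi-likelihood test. With C3a against oxy-Hb 45 points lie above 0 and Rexo1 alone is red. With C3a against C3aRA 5 points are red on the higher side and Rexo1 on the lower.

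The count of calls changed most with C3a replicates 1 and 2 and fell to 0 without oxy-Hb replicate 1 or 2. In the latter fits 0.370% and 0.736% of all genes were called. Without C3a replicate 2, 7 members were called higher (Bms1, Heatr1, Lsg1, Nop58, Utp4, Wdr36 and Xrn2) and 2 lower (Csnk2a2 and Rexo1), while 9.55% of all genes were called. Without C3a replicate 1 there were 6 higher (Ak6, Nop10, Nop58, Rexo2, Sbds and Wdr36) and 2 lower (Rexo1 and Tcof1), with 11.2% of all genes called. Nop58 and Wdr36 stood on both lists, at 0.32 and 0.37 on the log2 scale without replicate 2.

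The members' values in C3a replicate 2 followed coding length. Across the 56 tested members the difference of this library from the mean of C3a replicates 1 and 3 had a Spearman's rho of -0.79 with coding length, a correlation across genes of the same libraries, and -0.55 over 11353 genes. Its median was 0.44 on the log2 scale for the 14 members under 1 kb, 0.060 for the 17 between 1 and 2 kb, -0.060 for the 15 between 2 and 3 kb and -0.43 for the 10 over 3 kb. Mdn1, with 16746 coding bases, stood at 157 and 201 CPM in C3a replicates 1 and 3 and 56.4 CPM in replicate 2. Nop10, with 192 coding bases, stood at 104 and 130.2 CPM there and 165 CPM in replicate 2. For the fold change of C3a against oxy-Hb the rho with length was -0.50 among members. For C3a replicates 1 and 3 against oxy-Hb it was 0.016 among members and -0.16 over all genes. With GC content, the latter difference had a rho of -0.27 among members and -0.40 over all genes. C3a replicate 2 also held the high ribosomal protein sum. The part of length, GC content or that sum in the members' fold changes was not tested.

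**Figure D3:**
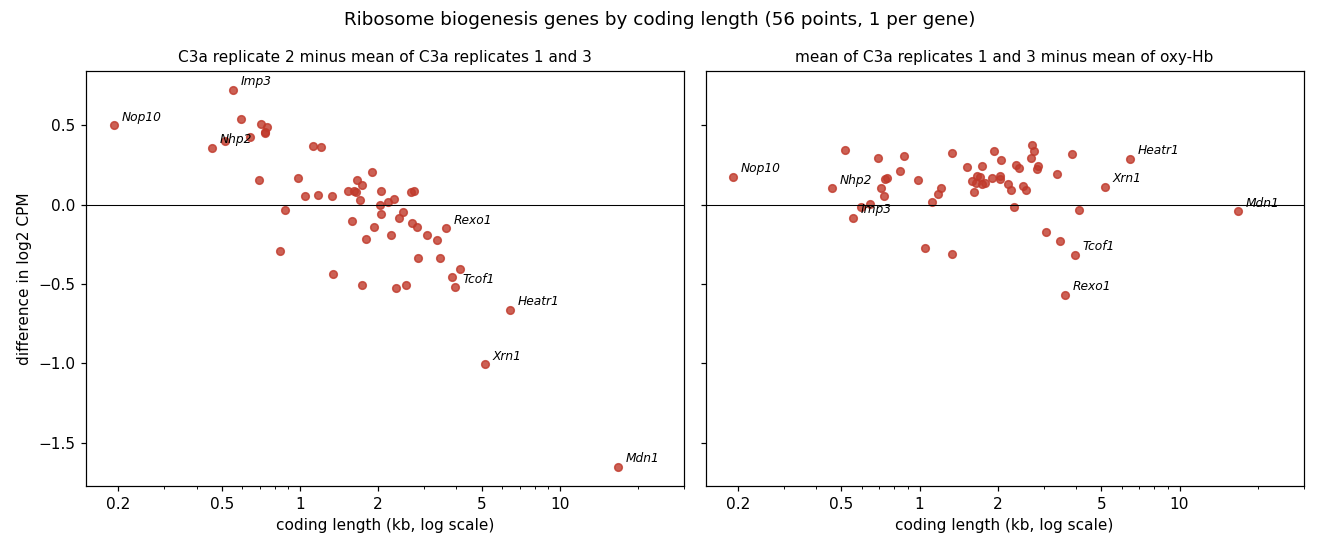
Each point is a tested ribosome biogenesis gene, placed by coding length in kilobases on a log axis. The left panel shows the difference in log2 CPM between C3a replicate 2 and the mean of C3a replicates 1 and 3, which declines with length (rho -0.79), and the right panel the mean of C3a replicates 1 and 3 minus the oxy-Hb mean, with a rho of 0.016.

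Correcting each library for transcript length and GC moved the median of all genes to 0.096 and that of the members to 0.20. With it 7 members were higher than with oxy-Hb alone and 0 lower. These were Ak6, Eif6, Lsg1, Pwp2, Rrp7a, Tbl3 and Wdr36, with log2 fold changes from 0.34 to 0.55. Over all 14146 genes tested, 770 were higher and 348 lower (7.90% in either direction). With both changes, the correction and the removal of C3a replicate 2, 16 members were higher and 0 lower. Over the 14613 genes tested there, 1221 were higher and 439 lower (11.4% in either direction). The median was then 0.146 for the members and 0.057 for all genes.

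With C3aRA the median ribosome biogenesis gene lay close to its oxy-Hb level, and none passed in the fit of 9 libraries. This comparison addressed the response to C3aRA, and in the fit of 9 libraries it gave 0 calls in edgeR, among members and among all genes (0%). At an unadjusted p below 0.05 there were 3 members, all lower, and 1153 genes (8.15%) in all, while DESeq2 and limma-voom called 0 members. Fits without C3a replicate 2 and of the 2 groups alone each called 4 members lower, as given below. These fits called 3.25% and 4.43% of all genes. The median log2 fold change was 0.025 (all genes -0.012), 32 of 56 members lay above 0 against 48.0% of all genes, and the range was -0.48 to 0.23. Groups did not overlap for 6 members on the higher side (10.7%, against 11.9% of all genes) and 5 on the lower (8.93%, against 11.0%), where 22.9% of all genes had groups apart in either direction.

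The 3 members with the lowest p on the lower side were Utp14b, Nop10 and Nop56. Utp14b (ENSMUSG00000079470, chr1:78658038-78671512 (+ strand)) is a retrocopy of the processome gene Utp14a that is needed in the male germ line. It was at 33.0, 33.6 and 35.7 CPM with oxy-Hb and 24.7, 23.9 and 24.7 CPM with C3aRA, without overlap (-0.48 ± 0.15, SE, n = 3 per group, edgeR adjusted p = 0.479). The gene lies inside Acsl3 on the same strand, so it may share reads with Acsl3, and also with Utp14a and a named pseudogene, which was not tested. Its parent gene Utp14a was at 93.3, 92.4 and 105 CPM with oxy-Hb and 99.2, 106 and 105 CPM with C3aRA. Nop10 was at 84.3, 111 and 117 CPM with oxy-Hb and 72.4, 86.3 and 69.7 CPM with C3aRA, where the highest C3aRA library lay just above the lowest oxy-Hb library (-0.45 ± 0.17, adjusted p = 0.516). For Nop56 the values were 314, 347 and 326 CPM and 271, 282 and 280.4 CPM, without overlap (-0.24 ± 0.10, adjusted p = 0.569).

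On the higher side the lowest p were those of Gtpbp4, Mphosph10 and Ak6. Gtpbp4 was at 357, 357 and 406 CPM with oxy-Hb and 447, 427 and 419 CPM with C3aRA (0.21 ± 0.10, adjusted p = 0.615), without overlap. Mphosph10 was at 166, 163 and 189 and 203, 199.6 and 187 CPM (0.19 ± 0.10, adjusted p = 0.674), where the ranges overlapped. Ak6 was at 32.1, 32.7 and 29.6 and 39.1, 40.5 and 31.5 CPM (0.23 ± 0.15, adjusted p = 0.718), where they also overlapped. Nob1 and Riok2 lay higher without overlap, Riok2 at 79.3, 89.4 and 84.4 CPM with C3aRA (0.15 ± 0.10, adjusted p = 0.73). Of the 4 H/ACA proteins 1 lay above 0, Gar1 at 0.03, while Dkc1 was at -0.16 and Nhp2 at -0.14.

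The other roles lay around 0 with C3aRA. The 6 UtpB proteins ran from -0.077 to 0.089 (median 0.0042), the 5 UtpA proteins from -0.044 to 0.095 (median 0.024) and the 3 casein kinase 2 subunits from -0.022 to 0.031. Of the 12 factors of the 60S precursor 10 lay above 0, with Mdn1 lowest and Gtpbp4 highest. The 4 late 40S factors had a median of 0.13, and Nob1, at 84.0, 82.0 and 84.7 CPM with oxy-Hb and 86.4, 93.5 and 88.6 CPM with C3aRA, had groups that did not overlap by a small margin. Of the 9 other processome factors 3 were lower without overlap, namely Emg1 (-0.27 ± 0.14, adjusted p = 0.647), Rrp7a (-0.14) and Utp14b, and none was higher without overlap.

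Removing C3a replicate 2, a library of neither group, from the fit gave 4 members called lower with C3aRA, as did a fit of the 2 groups alone. These were Mdn1, Nop10, Nop56 and Utp14b, at -0.32, -0.45, -0.25 and -0.48 in the former fit, in which 3.25% of all genes were called. Mdn1 was at 139, 144 and 157 CPM with C3aRA, below its 3 oxy-Hb libraries. Its SE for this comparison was 0.32 with C3a replicate 2 in the fit and 0.079 without it, and the edgeR adjusted p moved from 0.843 to 0.0249. In the authors' deposited table, made with an unstated test, the same 4 genes were lower and Gtpbp4 higher (adjusted p = 0.0368), with 473 higher and 242 lower over all genes.

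Set directly against each other, C3a and C3aRA differed in 6 ribosome biogenesis genes, 3 of them snoRNP proteins. The comparison asked which members differed between the 2 additions, and it shares the C3a and the C3aRA libraries with the comparisons above. All 7 tested proteins of the H/ACA and C/D particles had 3 C3a libraries above 3 C3aRA libraries, and 3 of them passed. In total, 5 members were higher with C3a and 1 lower (edgeR adjusted p below 0.05), against 2.87% and 3.32% of all genes (6.19% in all). The median over 56 members was 0.15 (all genes 0.0083), 43 lay above 0 against 50.7% of all genes, and the range was -0.65 to 0.81. Groups did not overlap for 21 members on the higher side (37.5%, against 14.1% of all genes) and for 5 on the lower (8.93%, against 14.7%), where 28.8% of all genes had groups apart in either direction. The log2 difference had a rho of -0.48 with coding length among members and -0.41 over all genes. Coding lengths of the H/ACA members were 192 bases for Nop10, 459 for Nhp2, 693 for Gar1 and 1527 for Dkc1. In C3a replicate 2 these lay 0.50, 0.36, 0.16 and 0.085 above C3a replicates 1 and 3 on the log2 scale. The part of length in the difference was not tested.

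Nop10 (ENSMUSG00000027133, chr2:112261926-112263269 (+ strand)), the smallest subunit of the pseudouridine-forming particle and of telomerase, had the largest difference. Its levels were 104, 165 and 130.2 CPM with C3a and 72.4, 86.3 and 69.7 CPM with C3aRA, and the oxy-Hb libraries at 84.3, 111 and 117 CPM reached into the C3a range. The log2 difference was 0.81 ± 0.17 (SE, n = 3 per group, edgeR adjusted p = 0.017), and 0.62 without C3a replicate 2. Dkc1 (ENSMUSG00000031403, chrX:75095854-75109777 (+ strand)), the pseudouridine synthase dyskerin, was at 227, 259.5 and 264 CPM with C3a, 180.5, 194 and 183 CPM with C3aRA and 182, 214 and 228 CPM with oxy-Hb, a difference of 0.43 ± 0.11 between the additions (adjusted p = 0.0349). Nhp2 was at 427, 586 and 490.2 CPM with C3a and 366, 414 and 383 CPM with C3aRA (0.37 ± 0.12, adjusted p = 0.0785). Gar1, the remaining H/ACA protein, was at 45.4, 49.4 and 43.2 and 38.3, 39.5 and 36.4 CPM (0.27 ± 0.17, adjusted p = 0.343), and neither of these passed.

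In the C/D particle Nop56 (ENSMUSG00000027405, chr2:130274430-130279313 (+ strand)), the partner of Nop58 in the particle's core, was at 326, 391 and 397 CPM with C3a and 271, 282 and 280.4 CPM with C3aRA. Nop56's oxy-Hb libraries, at 314, 347 and 326 CPM, lay above the C3aRA libraries and overlapped the C3a libraries, and the difference between the additions was 0.42 ± 0.10 (adjusted p = 0.0303). Nop58 differed by 0.36 ± 0.11 (adjusted p = 0.061) and Fbl, at 68.8, 75.1 and 64.8 CPM with C3a and 57.3, 60.9 and 61.2 CPM with C3aRA, by 0.22 ± 0.12 (adjusted p = 0.288). For Nop58 the oxy-Hb and C3aRA libraries overlapped, and for Nop56 the oxy-Hb and C3a libraries did.

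Emg1 and Utp14b were the called single factors of the processome. Emg1 (ENSMUSG00000004268, chr6:124704085-124712178 (- strand)), which methylates a pseudouridine of 18S RNA, was at 103, 146 and 109 CPM with C3a, 75.3, 96.5 and 83.8 CPM with C3aRA and 98.3, 108 and 102 CPM with oxy-Hb (0.49 ± 0.14, adjusted p = 0.0487). C3a replicate 2 was the highest of the 9 libraries, and without it the difference was 0.31. Utp14b was at 37.3, 28.1 and 44.1 CPM with C3a against 24.7, 23.9 and 24.7 CPM with C3aRA (0.58 ± 0.15, adjusted p = 0.0374). Here C3a replicate 2 was the lowest of its group, and the difference without it was 0.73. Rexo1 was lower by 0.65 ± 0.12 with C3a (log2 difference -0.65, adjusted p = 0.0104).

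Outside these particles the difference between the additions ran in both directions, and no other member passed. Imp4, which with Imp3 and Mphosph10 forms the MPP10 complex, came nearest, at 81.1, 85.8 and 95.4 CPM with C3a and 53.6, 62.2 and 72.0 CPM with C3aRA (0.48 ± 0.14, adjusted p = 0.0544). All 6 UtpB proteins lay above 0 (median 0.26) and 4 had groups that did not overlap, with Wdr36 at 0.32 ± 0.10 (adjusted p = 0.0651). The 5 UtpA proteins had a median of 0.13, the 4 late 40S factors 0.18 and the 12 factors of the 60S precursor 0.035. Lower with C3a, besides Rexo1, were the nuclease Rexo5, at 18.2, 13.1 and 17.4 CPM with C3a and 27.1, 23.9 and 18.4 CPM with C3aRA (-0.51 ± 0.17, adjusted p = 0.0879), and Tcof1, at 84.8, 54.5 and 72.2 and 91.1, 90.2 and 112 CPM (-0.47 ± 0.16, adjusted p = 0.09). In both genes the groups did not overlap, but neither passed. Csnk2a2 was at 80.0, 82.7 and 79.2 CPM with C3a and 96.9, 96.9 and 102 CPM with C3aRA (-0.29 ± 0.10, adjusted p = 0.0947), while Csnk2a1 and Csnk2b lay above 0.

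**Figure D4:**
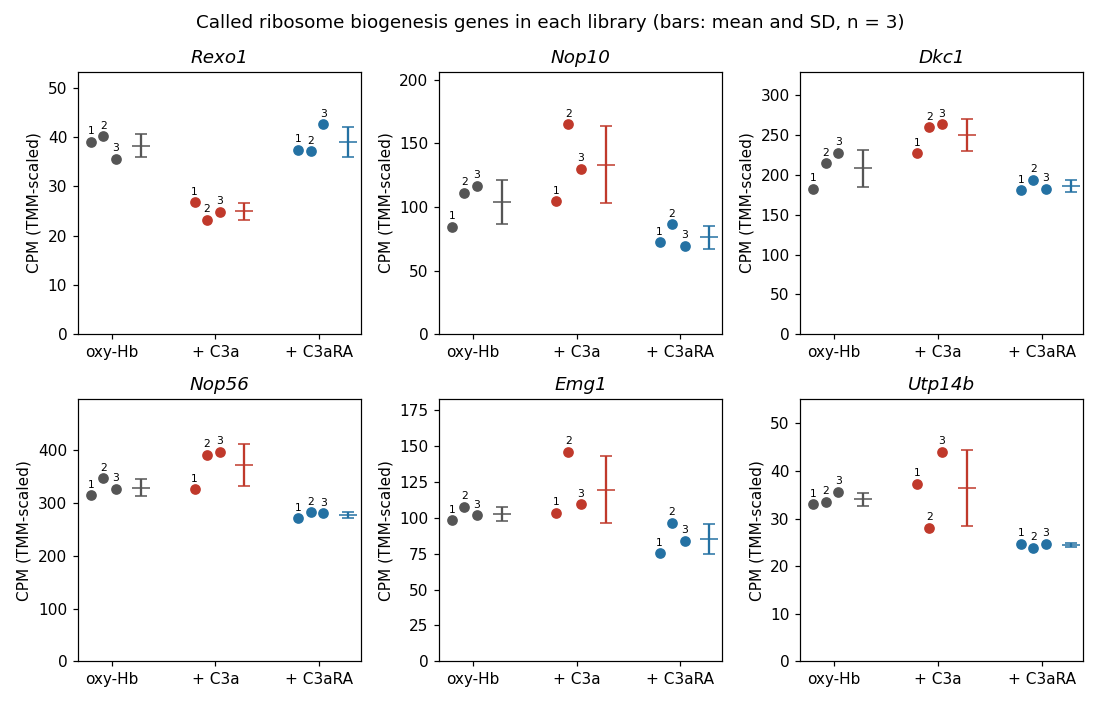
CPM of the 6 called ribosome biogenesis genes in each of the 9 libraries, with replicate numbers beside the points and bars for the mean and SD of 3 libraries. For Rexo1 the C3a libraries lie below both other groups, and for Emg1, Nop56 and Utp14b the C3aRA libraries lie below both other groups.

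Calls between the additions depended on single libraries. Without C3aRA replicate 1 or replicate 3, and in a fit of the 2 groups alone, 0 members were called in either direction. In these fits 0.361%, 1.02% and 0.875% of all genes were called. Without oxy-Hb replicates 1, 2 and 3 there were 3, 1 and 3 higher, without C3a replicates 1, 2 and 3 there were 9, 14 and 1, and without C3aRA replicate 2 there was 1. The share of all genes called in either direction moved too, to 3.84%, 2.68% and 3.94%, to 11.4%, 12.5% and 2.88%, and to 1.19% in the same fits. The removal of C3a replicate 2 also turned the value of Mdn1 from -0.09 ± 0.32 to a called 0.28 (adjusted p = 0.0300). Calls of Nop10 and Rexo1 held in 7 of 9 such fits, those of Dkc1 and Nop56 in 4, and those of Emg1 and Utp14b in 2.

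The sequences just before the RefSeq start of 4 called members are shown with the factor motifs that were looked for at the members' promoters. Motifs were the E-box CACGTG, which MYC and its relatives bind and which reads the same on both strands, CCGGAA, the core of ETS-family sites, and GGGCGG, the GC box of Sp1, each searched on both strands and counted separately where they overlap. Promoters are those of RefSeq in GRCm38.p6, each with 250 bases before and 50 bases after the start, and 46 of the 57 members had an entry. CACGTG was in the promoters of 9 of these members (19.6%), against 11.8% of the 9441 tested genes with an entry and 8.09% of all 27025 genes with one. CCGGAA was in 27 (58.7%), against 32.7% of tested genes and 16.7% of all genes, and GGGCGG in 28 (60.9%), against 67.7% and 38.2%. A match describes these letters only. The lines below give the 250 bases before the start, 5' to 3' in the gene's direction, with matches in capitals, for the called members that have a match there. They were chosen after the values were seen.
Utp14b (chr1:78658190-78658439, + strand): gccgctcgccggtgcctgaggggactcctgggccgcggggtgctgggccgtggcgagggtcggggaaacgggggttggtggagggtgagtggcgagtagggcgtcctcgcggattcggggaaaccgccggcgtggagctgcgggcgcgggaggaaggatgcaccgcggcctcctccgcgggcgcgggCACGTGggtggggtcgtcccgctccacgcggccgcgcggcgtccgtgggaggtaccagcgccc
Emg1 (chr6:124712179-124712428, - strand): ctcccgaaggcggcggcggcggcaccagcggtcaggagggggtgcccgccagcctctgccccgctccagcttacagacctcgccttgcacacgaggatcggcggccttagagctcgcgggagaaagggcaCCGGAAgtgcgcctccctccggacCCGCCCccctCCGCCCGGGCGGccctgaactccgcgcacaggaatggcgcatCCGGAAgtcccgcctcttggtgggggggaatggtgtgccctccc
Nop56 (chr2:130274162-130274411, + strand): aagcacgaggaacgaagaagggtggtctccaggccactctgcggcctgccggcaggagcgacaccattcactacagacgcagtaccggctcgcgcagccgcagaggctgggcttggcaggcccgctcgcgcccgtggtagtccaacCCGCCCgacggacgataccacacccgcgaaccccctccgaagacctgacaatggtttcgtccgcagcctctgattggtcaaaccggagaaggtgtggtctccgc
Rexo1 (chr10:80561561-80561810, - strand): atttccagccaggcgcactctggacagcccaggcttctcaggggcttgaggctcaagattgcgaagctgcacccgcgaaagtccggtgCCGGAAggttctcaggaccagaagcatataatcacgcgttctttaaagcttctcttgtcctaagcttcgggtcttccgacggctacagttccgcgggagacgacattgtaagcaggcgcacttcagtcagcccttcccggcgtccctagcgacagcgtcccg
The deposited coordinates start Utp14b further upstream, so that its printed stretch lies inside the gene as given there. Utp14b carried the E-box, Emg1 2 ETS cores and 3 GC boxes, Nop56 1 GC box and Rexo1 1 ETS core. Dkc1 and Nop10 had none of the 3 motifs in these 250 bases. No motif of this search was in all 5 upstream sequences of the members called higher with C3a than with C3aRA.

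Other genes of ribosome production, from lists of assembly factors, polymerase I and related genes without the rule, were read in the same fit. With C3a against oxy-Hb, 0.905% of all genes were called higher and 3.04% lower. RNA polymerase I and its factors (24 tested) had 0 higher and 1 lower with C3a against oxy-Hb, the lower being Taf1c, a subunit of the promoter selectivity factor (log2 fold change -0.99 ± 0.24, adjusted p = 0.0368). Taf1c was low in all groups, with means of 6.38 CPM with oxy-Hb, 3.22 CPM with C3a and 4.06 CPM with C3aRA. With C3aRA against oxy-Hb its log2 fold change was -0.65 ± 0.24 (edgeR adjusted p = 0.516). Small-subunit factors that lack the term (28 tested) had 1 higher, Aatf, at 85.9 against 58.4 CPM (0.56 ± 0.11, adjusted p = 0.0183). Large-subunit factors that lack it (44 tested) had 2 higher, Nop16 (0.45, adjusted p = 0.0346) and Ddx24 (0.45, adjusted p = 0.0409), and 0 lower. Of the nuclear RNA exosome, which degrades and trims precursors, all 13 tested subunits and cofactors lay above 0 and none passed. Over all genes 50.2% lay above 0, and 13.2% were higher without overlap, as were 2 of these 13. The medians of these lists were 0.23, 0.15, 0.16 and 0.20, beside 0.17 for the members. Of 9 MYC network genes and 10 genes of nucleolar stress and p53, none passed with C3a against oxy-Hb.

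With C3aRA against oxy-Hb the same lists had 0 calls, where 0% of all genes were called. Their medians were -0.022 for polymerase I, 0.028 and 0.034 for the small- and large-subunit factors and -0.036 for the exosome. Between C3a and C3aRA, 2.87% of all genes were called higher with C3a and 3.32% lower. Of the 24 polymerase I genes 3 were higher with C3a: Polr2l, a subunit that the polymerases share (1.01), Cd3eap (0.72) and Nolc1, a chaperone of snoRNPs (0.44). Polr2l's C3a libraries were widely spread, with a mean of 23.7 CPM and an SD of 10.5, against 11.8 and 1.41 with C3aRA (edgeR adjusted p = 0.0365). Aatf (0.45) and Bud23, an 18S methyltransferase (0.42), were higher among the small-subunit factors. Nop16 (0.41), Nip7 (0.44) and Nop2 (0.43) were higher among the large-subunit factors, and Exosc2 (0.40) in the exosome. Mxd1, a repressor of the MYC network, was lower with C3a (-0.78, adjusted p = 0.0311), as was Bbc3, the p53 target PUMA (-1.06, adjusted p = 0.0396).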

How the data were processed

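Messenger RNA of BV2 cells was sequenced with a SMARTER library kit from 1.3 ug of total RNA, per the labels' protocols. The authors deposited 2 tables of raw read counts per gene, each with oxy-Hb and 1 addition, and with log2 fold changes, adjusted p-values and pathway terms of their own. Per the submitters' processing notes the builds were GRCm38 and mm10. Aligner, counter, strand setting and the authors' test were not given in the sources used here. Both tables hold the same oxy-Hb counts (0 differences), and the 9 libraries were joined by gene identifier.

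Counts were kept by filterByExpr (minimum count 10, 14146 genes), scaled with TMM and fitted in edgeR 4.0.16 with 1 coefficient per group, using the robust quasi-likelihood test. P-values were adjusted by Benjamini-Hochberg over all genes tested, with a threshold of 0.05. CPM of single genes are TMM-scaled; sums and floors use library totals. Errors of log2 fold changes are SEs. No 2 replicates agreed within sampling noise. The scripts were tested on simulated data.

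Coordinates, coding lengths and overlaps come from GENCODE M21 of GRCm38, in which 54 members had the deposited start and end. Levels per kilobase use coding length, where transcript length had been planned. Since no strand setting is stated, overlapping genes may share reads.

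Members, role lists and related lists were chosen with earlier results of these data known. Named were the called members, the 3 lowest p per direction where a comparison had no call, a panel of 24 genes, the extremes of level per length and members of small role lists; others are named after their values were seen. Alternatives were other scalings and filters, DESeq2 1.42.0, limma-voom 3.58.1, fits of 2 groups, a replicate block, leaving out each library, a length and GC correction, other thresholds and all rows with the pathway term.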

Additional observations from a re-analysis of the deposited data

How the results depend on the processing

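Calls among the members are few and move with single libraries, so counts are given with their range. With C3a against oxy-Hb, members called higher were 1 without the count filter, 3 with DESeq2, 7 after the length and GC correction, 16 with that correction and without C3a replicate 2, and 3 at an adjusted p below 0.10. The first 4 of these settings called 4.58%, 10.6%, 7.90% and 11.4% of all genes in either direction, against 3.94% in the fit as reported. Members called lower were 2 without the filter, 0 in the 2 groups alone, 0 after the correction (0 also without C3a replicate 2), 0 at an adjusted p below 0.01 and 2 at 0.10. The fit of the 2 groups alone called 0.720% of all genes. The share of all genes called at 0.01 or 0.10 was not counted, so member counts at these thresholds have no background beside them. The median was 0.0745 with total count scaling, which put the median of all genes at -0.0895. Leaving out each library gave 0 to 7 higher, 0 to 2 lower and medians of 0.141 to 0.215.

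With C3aRA against oxy-Hb, 4 members were lower in the 2 groups alone (4.43% of all genes called), and 2 were higher and 3 lower with the correction and without C3a replicate 2 (7.90%). The median was -0.0375 with total count scaling, 0.0720 with the correction and 0.0739 with both changes, beside medians of all genes of -0.0744, 0.0397 and 0.0419. Leaving out each library gave 0 higher, 0 to 4 lower and medians of 0.00415 to 0.0611.

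Between C3a and C3aRA, members called higher were 3 with total count scaling, 9 without the filter, 9 with DESeq2, 3 with limma-voom, 0 in the 2 groups alone, 11 with the correction, 15 with the correction and without C3a replicate 2, 0 at an adjusted p below 0.01 and 10 at 0.10. The first 7 of these settings called 5.04%, 5.75%, 11.7%, 5.34%, 0.875%, 8.69% and 13.7% of all genes in either direction, against 6.19%. Members called lower were 2, 0, 2, 3, 0 and 4 without the filter, in the 2 groups alone, with the correction, with both changes, at 0.01 and at 0.10. For 0.01 and 0.10 the share of all genes was again not counted, and the member counts there cannot be set against it. The median was 0.201 over all tested rows with the pathway term. Leaving out each library gave 0 to 14 higher, 0 to 2 lower and medians of 0.123 to 0.208. Mdn1, at -0.0878 in the fit of 9 libraries, turned to a called 0.281 without C3a replicate 2 (-0.455 without C3a replicate 3), and to 0.415 with the correction as well. The cause of these moves was not tested.

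With the replicate number as a block, 1 member (Ak6) was higher and 1 lower with C3a against oxy-Hb, 0 with C3aRA, and 7 higher and 2 lower between the additions, while 5.90%, 0% and 8.55% of all genes were called. Same-numbered libraries deviated together weakly (r from -0.0405 to 0.170, over 0.1 in 2 of 9 pairs), and 6 of 9 libraries correlated best with their own number. The fit as reported did not use the numbers as pairing, and whether they mark pairs is not settled by these values. All tested members lay above the floor: the lowest level in any library was 13.1 CPM (Rexo5 in C3a replicate 2), against a floor of at most 0.232 CPM. Whether depth limited the calls was not tested.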
